A study of Mus musculus with 6 samples.

Results

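Unplaced and unlocalised scaffolds are stretches of the mouse assembly that could not be given a position on a chromosome. The peaks of thyroid hormone receptor α (TRα) described here are those whose chromosome name is such a scaffold, with the prefix GL, JH or MU, a rule that uses the name alone. There were 1438 of them among 491681 peaks in 6 lists, on 32 scaffolds. The lists came from chromatin immunoprecipitation and sequencing (ChIP-seq) of gastrocnemius, the main calf muscle, of 6 mice, with 2 mice at each of 6, 15 and 21 months. Every mouse was precipitated with the same antibody to TRα and had its own list, called against an input library of the same mouse. Strain, sex and treatment are not given in the labels, and each list is 1 animal. A peak list holds no expression values, so the tissue label could not be checked against muscle markers.

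TRα is a nuclear receptor that binds DNA with or without thyroid hormone, usually as a partner of a retinoid X receptor, at repeats of a short half-site. In muscle it is known for regulating contractile and metabolic genes. Scaffolds are known to hold much repeated and duplicated sequence, because such sequence is hard to place in an assembly. As general knowledge of the mouse assembly, GL456210.1, GL456211.1, GL456212.1 and GL456221.1 belong to chromosome 1. GL456354.1 and JH584296.1 to JH584299.1 belong to chromosome 5, GL456219.1 to chromosome 7, GL456233.2 to X, and JH584300.1 to JH584303.1 to Y. The other 17 scaffolds with peaks, JH584304.1 among them, are not grouped by chromosome here. No genome sequence was used here, so no sequence of these regions is shown.

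For each peak the authors deposited a pileup, which counts the fragments over the summit, and a fold of that pileup over local input. From both, the local input background was recovered as (pileup + 1) / fold − 1. It is given below as a multiple of the lowest background in the same list, which was between 0.633 and 1.2 fragments and stands for the genome-wide level. No read totals were used. The pileup a peak needs to enter a list depends on this background. At the genome-wide level a pileup of 3 or 4 fragments had a Poisson p under 0.01, with a fold between 2.21 and 2.74. At 500 times that level, a pileup of 359 to 656 fragments was needed, and a fold of 1.10 to 1.13 was enough. Low fold and high background on a scaffold are therefore not independent measures.

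Scaffold peaks were a small part of every list. Where values of all 6 mice are listed here and below, those of 6 months come first and those of 21 months last, with replicate 1 before replicate 2. Scaffold peaks numbered 225, 331, 246, 144, 270 and 222, in lists of 79040, 106152, 99436, 29405, 91661 and 85987 peaks. They made up 0.285%, 0.312%, 0.247%, 0.490%, 0.295% and 0.258% of their lists. Replicate 2 at 15 months stood apart, with the shortest list and the highest share, and the other 5 mice lay within 0.247% and 0.312%. The mean share of the youngest mice was 0.298% ± 0.0192, that of the 15-month mice 0.369% ± 0.171 and that of the oldest 0.276% ± 0.0257 (SD, n = 2 each), and the ages overlapped. Its correlation with age was not distinguishable from 0 (Pearson's r = -0.06, two-sided exact permutation p = 0.933, or 0.933 after adjustment; Spearman's rho = -0.24, exact permutation p = 0.711, or 0.711 after adjustment). These and the following tests over ages use the 90 distinct assignments of ages to mice, and adjusted values are over 3 measures. With the youngest 2 mice left out r was -0.47.

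A few scaffolds carried most of the peaks. JH584299.1 had 387, or 26.9% of all scaffold peaks, spread up to position 944418, or 41.0 per 100 kb. The other chromosome 5 scaffolds had 38.6 to 46.1 per 100 kb up to their last peak. By mouse JH584299.1 held 57, 101, 62, 36, 69 and 62 peaks. GL456211.1 followed with 150 peaks, by mouse 26, 26, 21, 14, 39 and 24. JH584304.1 had 118, with 18, 21, 22, 14, 20 and 23. GL456221.1 had 109, JH584297.1 had 93 and JH584296.1 had 82, and these 6 scaffolds together had 939 peaks (65.3%). Peaks were found in all 6 mice on 12 scaffolds and in 1 mouse on 4 scaffolds. The 14 scaffolds with under 10 peaks each had 44 peaks in all. JH584299.1 had the most peaks in the longest list and the fewest in the shortest. JH584304.1 had between 14 and 23 peaks per list, and its fewest, 14, were also in the shortest list.

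**Figure D1:**
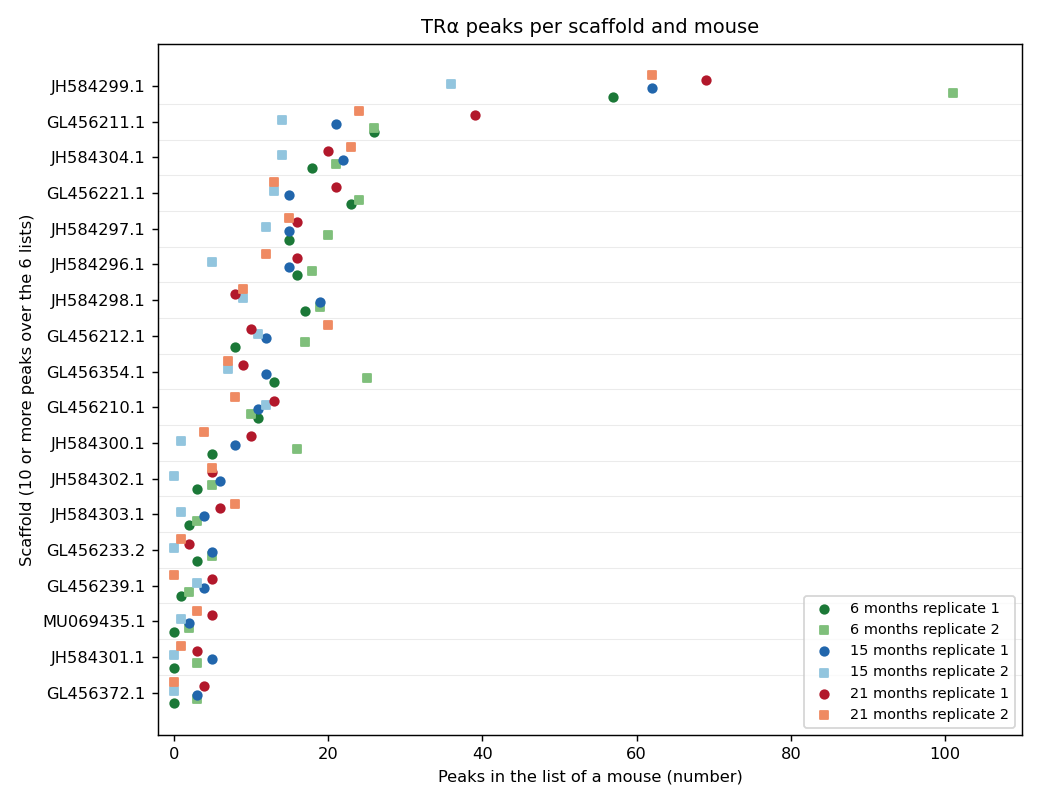
Number of TRα peaks (x axis) on each scaffold with 10 or more peaks over the 6 lists (y axis), with 1 point per mouse, coloured by age and shaped by replicate. JH584299.1 ranges from 36 to 101 peaks and JH584304.1 from 14 to 23, both lowest in replicate 2 at 15 months.

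Local input background differed between scaffolds grouped by chromosome. In every mouse its median was higher on the scaffolds of chromosome 1 than on those of chromosome 5. On the 4 scaffolds of chromosome 1, the median background of the 402 peaks was 2.45 times the genome-wide level. By mouse it was 2.72, 2.45, 2.45, 2.18, 2.36 and 2.43. For peaks placed on chromosome 1 itself it lay between 1.00 and 1.15, so the ranges of scaffold and chromosome did not overlap. The 716 peaks on the 5 scaffolds of chromosome 5 had a median multiple of 1.18, and 1.06 to 1.28 by mouse, against 1.00 to 1.09 on chromosome 5. Peaks on the scaffolds of chromosomes 7, X and Y had a median multiple of 1.00 for each chromosome over all lists. With 1 peak, the chromosome 7 scaffold had 1.22 in replicate 1 at 15 months, against 1.19 on chromosome 5 scaffolds. The X scaffold, also with 1 peak, had 1.22 in replicate 2 at 21 months, against 1.14 on chromosome 5 scaffolds. Peaks were also denser on the chromosome 1 and 5 scaffolds. Up to the last peak of each scaffold, all 6 lists together had 52.2 and 41.9 peaks per 100 kb there, against 20.5 and 19.99 on chromosomes 1 and 5. On the Y scaffolds the density was 14.3, against 15.3 on Y, and on the X scaffold 2.89, against 5.97 on X. These densities are upper estimates for scaffolds, whose full lengths were not used here.

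MU069435.1, with 13 peaks in 5 mice, had the highest median background after JH584304.1, at 74.3 times the genome-wide level and between 35.9 and 128 times for single peaks. Its folds were 1.32 to 2.15, and 4 of its peaks had q of at most 0.05, 3 of them in replicate 1 and 1 in replicate 2 at 21 months. By mouse it had 0, 2, 2, 1, 5 and 3 peaks. The 4 peaks of GL456383.1 had a median multiple of 8.02, and the 15 peaks of GL456239.1 had 3.44.

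**Figure D2:**
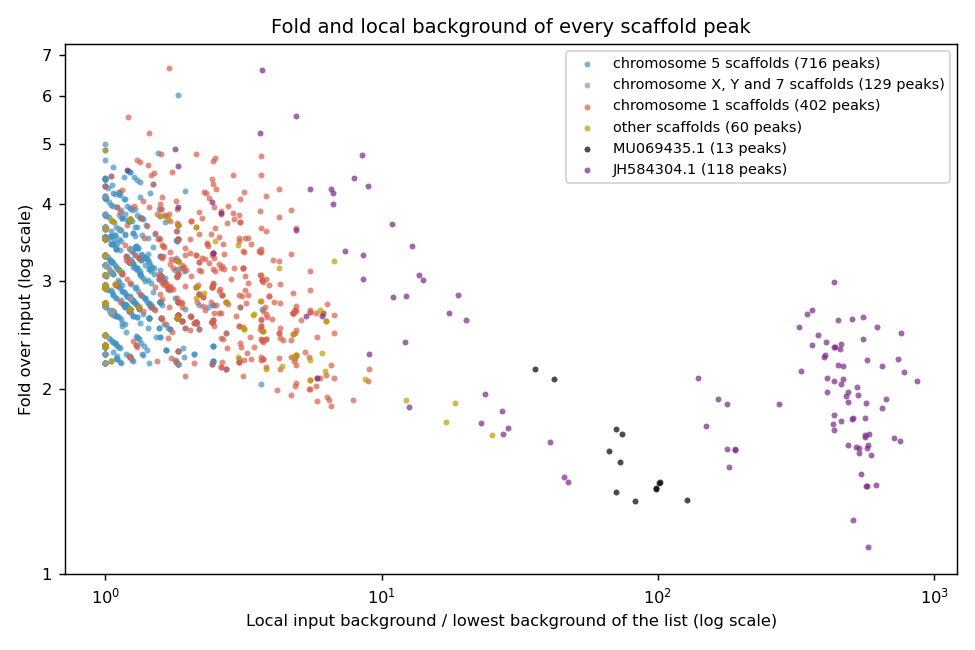
Fold over input (y axis, log scale) against local input background as a multiple of the lowest background of the same list (x axis, log scale), 1 point per scaffold peak, coloured by scaffold group. By their median, peaks of chromosome 1 scaffolds lie to the right of those of chromosome 5 scaffolds, but the groups overlap. JH584304.1 reaches 866 times, with folds under 3 for its peaks at 100 times or more.

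Scaffold peaks had low q more often than the peaks of chromosomes 1 to 19, X and Y in the same list. The q value is the authors' own, adjusted within a list. By mouse, 30, 44, 32, 24, 34 and 27 scaffold peaks had q of at most 0.05, or 13.3%, 13.3%, 13.0%, 16.7%, 12.6% and 12.2% of them. Of all peaks in the same lists, 1.16%, 3.05%, 1.63%, 4.27%, 2.41% and 1.9% had this. The exact 95% binomial intervals of these 6 shares ran from 8.17% to 23.8% and overlapped each other. They cover counting error only, and peaks on 1 scaffold are not independent. The share on scaffolds exceeded that on chromosomes by 11.1 ± 1.03 percentage points (SD, n = 6) and was higher in 6 of 6 mice. The two-sided exact sign-flip permutation test over mice gave p = 0.0313, the smallest it can give, and 0.0417 adjusted over 4 measures. Without JH584304.1 the difference was 4.47 points (exact permutation p = 0.0313, adjusted 0.0417), and with −log10 q of at least 5 it was 5.98 points.

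The low q values were concentrated on a few scaffolds. Of 191 scaffold peaks with q of at most 0.05, 101 were on JH584304.1, where they made up 85.6% of its peaks. Chromosome 1 scaffolds had 52 (12.9% of their peaks) and chromosome 5 scaffolds 32 (4.47%), whereas 2.91% and 2.12% of peaks on chromosomes 1 and 5 passed. By mouse the chromosome 5 scaffolds had 2.54%, 6.56%, 2.44%, 8.70%, 5.93% and 0.952%, and in replicate 2 at 21 months this was below the 1.46% on chromosome 5. None of the 129 peaks on the 6 scaffolds of chromosomes 7, X and Y passed, which allows a share of up to 2.33% for counting error alone, close to the 2.21% of all peaks in all lists. At −log10 q of at least 5, 84 of 87 scaffold peaks were on JH584304.1. Outside that scaffold no peak with q of at most 0.05 had a pileup under 6. The peaks nearest to the limit were 1 on JH584299.1 just inside, with a pileup of 6 and a fold of 4.17, and 1 on JH584298.1 just outside, with a pileup of 6 and a fold of 4.15.

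Fold itself did not separate scaffolds from chromosomes when all peaks were taken. By mouse, the median fold on scaffolds was 2.85, 2.89, 2.95, 2.98, 2.76 and 2.92, and on chromosomes 2.73, 2.82, 2.91, 3.14, 2.76 and 2.92. On the log2 scale the scaffolds differed from the chromosomes by 0.01 ± 0.05 (SD, n = 6), and 3 of 6 mice were higher (exact sign-flip permutation p = 0.75, adjusted 0.75). When only peaks with q up to 0.05 were taken, scaffold folds were lower by a log2 difference of -0.36 (exact permutation p = 0.0313, adjusted 0.0313). JH584304.1 held 101 of these 191 scaffold peaks, and its median fold over all its peaks was 2.14. This difference is not given without that scaffold, so it may not hold for the others. No scaffold peak reached a fold of 10 in any list, where 0.185% of all peaks did. At so low a share few would be expected among 1438 peaks, so their absence does not set scaffolds apart. The highest fold on scaffolds was between 4.4 and 6.66 by mouse.

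The background difference was present in every mouse. The median multiple over all scaffold peaks was 1.36, 1.25, 1.31, 1.64, 1.51 and 1.34, and over chromosome peaks 1.03, 1.08, 1.00, 1.09, 1.00 and 1.00. On the log2 scale the difference was 0.43 ± 0.14 (SD, n = 6), higher in 6 of 6 mice (exact sign-flip permutation p = 0.0313, adjusted 0.0417). Without JH584304.1 it was 0.34 (exact permutation p = 0.0313, adjusted 0.0417), and with q limited to 0.05, where that scaffold held 101 of 191 peaks, it was 3.30. Background on scaffolds did not follow age beyond the spread between mice (Pearson's r = 0.42, exact permutation p = 0.389, or 0.933 after adjustment; rho = 0.36, exact permutation p = 0.533, or 0.711 after adjustment). The share of scaffold peaks with q of at most 0.05 did not either (r = -0.18, exact permutation p = 0.744, or 0.933 after adjustment; rho = -0.72, exact permutation p = 0.178, or 0.533 after adjustment). With the youngest mice left out these r were -0.15 and -0.69, so the first changed sign.

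Peaks on scaffolds were more often overlapped by a peak of another mouse. By mouse the share was 38.2%, 32.6%, 35.8%, 39.6%, 36.7% and 39.2%. On chromosomes it was 13.3%, 12.5%, 11.8%, 16.5%, 12.3% and 12.8%. The difference was 23.8 ± 2.11 percentage points (SD, n = 6), with scaffolds higher in 6 of 6 mice (exact sign-flip permutation p = 0.0313, adjusted 0.0417). The 6 values share lists with each other and are not independent. Without JH584304.1 the difference was 18.9 points (exact permutation p = 0.0313, adjusted 0.0417). The greater density of peaks on chromosome 1 and 5 scaffolds, given above, moves with this result, and its part in the overlap was not tested.

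**Figure D3:**
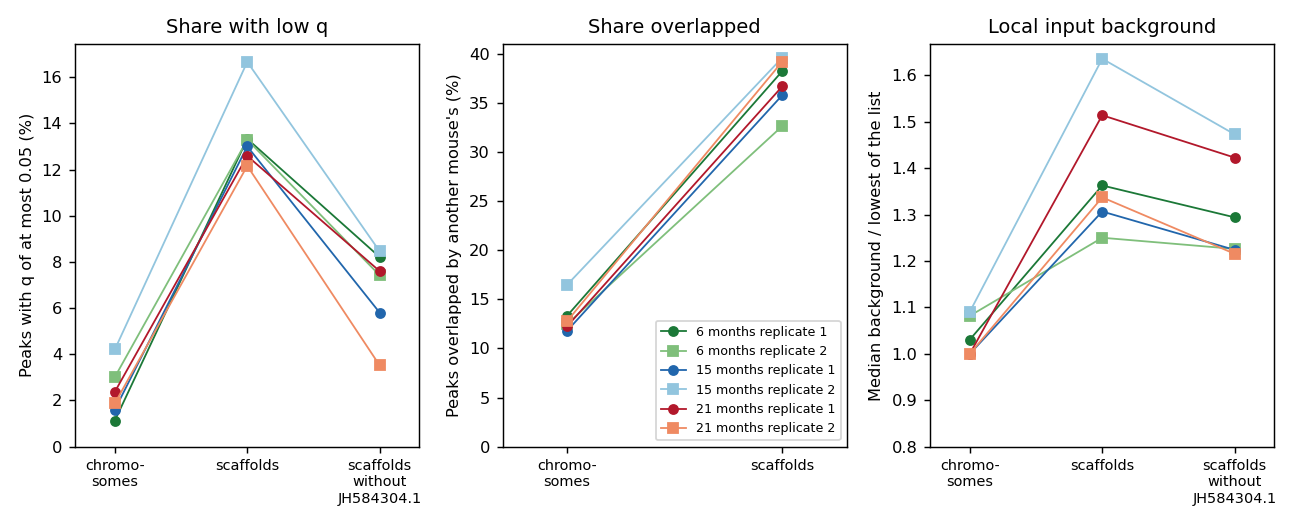
Each mouse (coloured line) on chromosomes 1 to 19, X and Y, on all scaffolds and, in the outer panels, on scaffolds without JH584304.1. The y axes give the percentage of peaks with q of at most 0.05, the percentage overlapped by a peak of another mouse, and the median background as a multiple of the lowest of the list (this axis starts at 0.8). Scaffolds lie above chromosomes in every mouse in all 3 panels.

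Merged by an overlap of at least 1 bp, scaffold peaks formed 1127 regions. Of these, 214 (19%) had peaks in at least 2 mice, against 6.4% of all regions of the genome, and 56 (4.97%) in at least 3, against 0.668%. In at least 5 mice there were 11 (0.976%), against 0.0568%, and in all 6 mice there were 6, where 0.0244% of all regions had this. JH584304.1 held 10 of the 11, and all 6 with peaks in every mouse, so the number in every mouse was 0 without that scaffold. Its own 39 regions included 20 in at least 3 mice. The other scaffolds had 1088 regions, of which 186 (17.1%) were in at least 2 mice and 36 (3.31%) in at least 3, and 22 of those 36 were on chromosome 1 scaffolds. On GL456211.1, 10 regions were in at least 3 mice, 3 of them in 4 mice, with folds between 1.92 and 4.29 over these 10. None of the scaffold regions outside JH584304.1 with peaks in at least 2 mice had q of at most 0.05 in every mouse with a peak there. Of all regions of the genome in 2 to 4 mice 1.01% had this, so few would be expected among these 186.

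JH584304.1 differed from the other scaffolds in background and in the recurrence of its peaks. The 118 peaks had a median background of 390 times the genome-wide level, a median pileup of 530 fragments and a median fold of 2.14. By mouse the median background was 36.4, 361, 405, 524, 408 and 447 times, and the median pileup 72.5, 500, 548, 767, 681.5 and 696. These medians over all peaks of the scaffold were far lower in replicate 1 at 6 months than in the others. Divided by background at 100 times the genome-wide level, its peaks fell into 2 stretches that did not overlap in position. From position 1159 to 63389 lay 44 peaks with background between 1.2 and 47.2 times the genome-wide level, a median pileup of 27 and a median fold of 3.18. From 69106 to 113406 lay 74 peaks with background between 140 and 866 times, a median pileup of 704.5 and a median fold of 1.94. Of these 74, 73 had q of at most 0.05, and of the 44, 28 did. By mouse the second stretch held 7, 16, 13, 10, 12 and 16 peaks. Replicate 1 at 6 months had the fewest there and the most in the first stretch, 11 of its 18, and the other mice had 4 to 9 in the first stretch. In the second stretch that mouse had a median background of 510 times, against 390 to 567 in the others. Its median pileup there was the highest, 1117 fragments against 530 to 776.5. In the first stretch its median background was also the highest, 13.6 times against 3.68 to 8.76. Across the genome 184 peaks had a background of at least 100 times the lowest, and 77 of them (41.8%) were on scaffolds, 74 on JH584304.1 and 3 on MU069435.1.

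**Figure D4:**
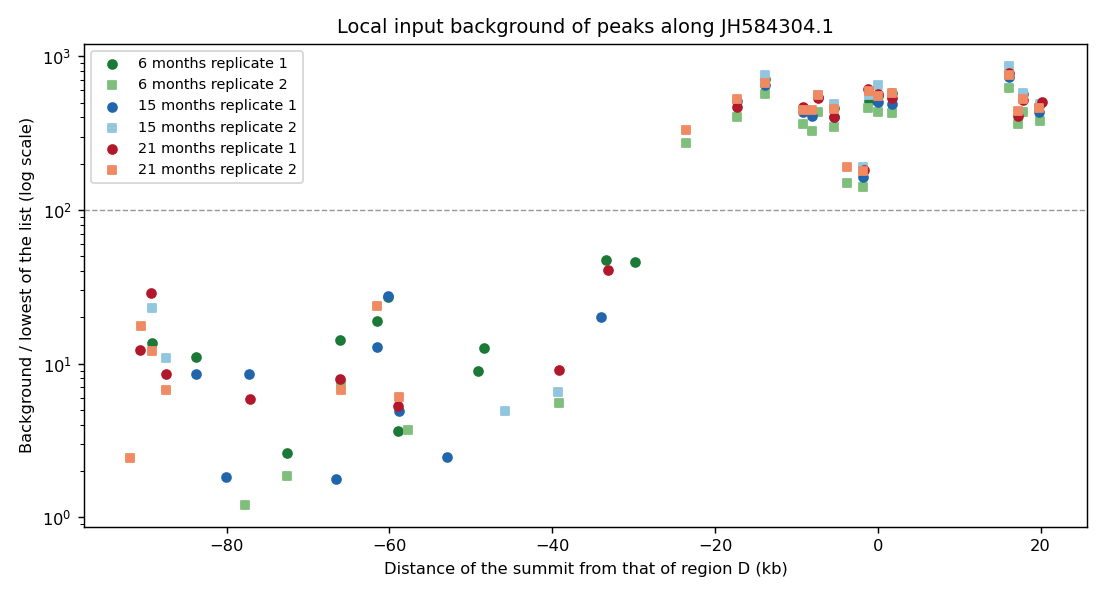
Local input background of JH584304.1 peaks as a multiple of the lowest of the list (y axis, log scale) against the distance of their summit from that of region D (x axis, kb), 1 point per peak, coloured by mouse. The dashed line at 100 times is the limit used to divide the peaks. The 74 peaks over it all lie to the right of the others, in every mouse.

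The 6 regions with a peak in every mouse are called A to F in order along JH584304.1. All are given in GRCm39 positions, and what lies there in the annotation was not analysed here. Region A, JH584304.1 from 87615 to 87886, had pileups of 1124, 585, 629, 765, 786 and 755 fragments. Its folds were 2.04, 2.65, 2.26, 1.90, 2.38 and 2.32. The highest pileup came with the second lowest fold, in replicate 1 at 6 months. Region B, from 91240 to 91585, had the lowest pileups of the 6, at 342, 186, 221, 251, 221 and 241. Its folds were 1.60, 2.08, 1.93, 1.59, 1.49 and 1.89.

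Region C, from 91950 to 92352, had folds of 1.22, 1.77, 1.39, 1.68, 1.40 and 1.56, and pileups of 517 to 778. Region D, from 93020 to 93277, had the highest pileups of these 6 regions in every mouse, 1599, 821, 914, 1163, 1039 and 1033 fragments. Its folds were 2.41, 2.99, 2.60, 2.18, 2.23 and 2.62. In region D the −log10 q lay between 110 and 201 in every list. Region E, from 94598 to 94958, had folds of 1.11, 1.76, 1.62, 1.60, 1.60 and 1.69. Its peak in replicate 1 at 6 months, with a pileup of 764 and a fold of 1.11, was the only 1 of the 36 peaks of these regions that did not have q of at most 0.05. Region F, from 112885 to 113406, had folds of 1.95, 2.45, 2.06, 1.98, 1.79 and 2.37, and pileups of 589 to 1117.

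The order of these regions by fold was alike in all mice. Regions A, D and F had the 3 highest folds in 6 of 6 mice, and D was highest in 5, with A highest in replicate 1 at 21 months. Mean folds over the 6 mice were 2.5 ± 0.298 for D, 2.26 ± 0.264 for A, 2.1 ± 0.256 for F, 1.76 ± 0.234 for B, 1.56 ± 0.232 for E and 1.51 ± 0.205 for C (SD, n = 6). Neighbours in this order, such as D and A, differed by less than 1 SD, apart from F and B. That SD is the spread between mice and does not use that all regions were measured in the same mice. Replicate 2 at 6 months had the highest fold in each of the 6 regions, and also the lowest background multiple in each of them. The median fold over the regions was 1.77, 2.26, 1.99, 1.79, 1.70 and 2.11 by mouse, and the ages overlapped.

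**Figure D5:**
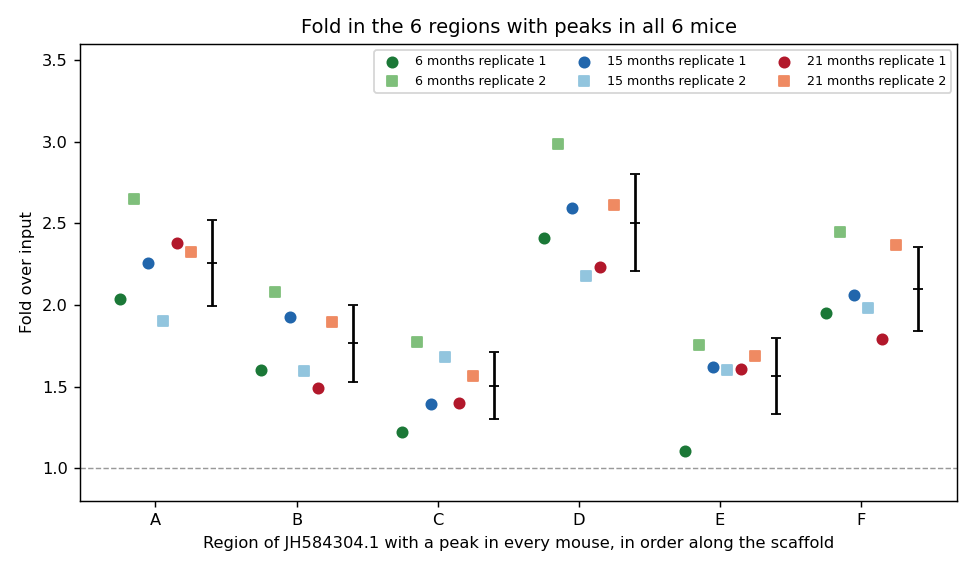
Fold over input (y axis) in regions A to F of JH584304.1 (x axis), with 1 point per mouse and, in black, the mean ± SD over the 6 mice. The dashed line marks a fold of 1. Regions A, D and F lie above B, C and E within each mouse, and in every region the 6-month mice overlap both other ages, while in region A the 21-month mice lie above the 15-month mice.

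Summits of some recurrent JH584304.1 regions lay within a few bases of each other. In region D they lay within 10 bp in the 6 mice, at 93148 to 93158, and in region A within 10 bp. In regions B and F they lay within 133 and 296 bp, and replicate 1 at 21 months had its summit apart from the others in both. In region C they lay within 48 bp, and in the first stretch the regions found in at least 3 mice had ranges from 21 bp to 118 bp. A region from 109129 to 109382, with peaks in 5 mice, had summits within 4 bp and the highest background on any scaffold in those mice, 620 to 866 times the genome-wide level. Its pileups in these 5 mice were 993, 1152, 1473, 1351 and 1335, with folds of 2.53, 2.24, 2.06, 2.14 and 2.47. Replicate 1 at 6 months had no peak there. The other regions in 5 mice were at 79222 to 79449, with folds of 1.65 to 1.93, 85485 to 85857, with 1.45 to 1.80, and 110734 to 111111, with 1.39 to 1.95. The first lacked a peak in replicate 1 at 21 months, and the others lacked one in replicate 1 at 6 months.

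Only 1 region outside JH584304.1 was found in 5 mice. It lay on JH584299.1 from 665886 to 667292, with pileups of 7, 5, 5, 6 and 5 fragments. The folds were 3.00, 3.14, 3.14, 3.42 and 3.16, at 1.11 to 1.40 times the genome-wide background. No peak there had q of at most 0.05, and the summits were spread from 666431 to 667154. Replicate 2 at 6 months, which has the longest list, had no peak in it.

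Of 203 scaffold regions found in 2 to 4 mice, 11 (5.42%) had q of at most 0.05 in every peak, against 1.01% of all such regions of the genome. All 11 were on JH584304.1, and the other scaffolds had 0 of 185, where few would be expected at a share of 1.01%. The highest-ranked by fold were in its first stretch. The region from 20460 to 20708 had peaks in both mice of 6 months and no other, with pileups of 15 and 9 and folds of 3.87 and 4.62. The region from 5628 to 5880 had folds of 3.71 in replicate 2 at 15 months and 4.81 and 4.00 at 21 months. The region from 26991 to 27279 had folds of 3.01 and 3.36 at 6 months and 4.41 and 4.17 at 21 months, with no peak at 15 months. A region from 2422 to 2885 had peaks in both mice of 21 months only, with folds of 2.84 and 2.66, and one from 9216 to 9564 had 2.82 in replicate 1 at 6 months and 3.02 in replicate 1 at 15 months. The next 5 were in the second stretch, at 83845 to 84075, 110202 to 110434, 84962 to 85177, 75826 to 76044 and 69106 to 69728, with folds from 1.79 to 2.69. Differences between ages were not tested for single regions.

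Of 913 scaffold regions found in 1 mouse, 61 (6.68%) had q of at most 0.05, against 1.55% of all single-mouse regions of the genome. Without JH584304.1 there were 54 of 902 (5.99%). The highest fold on any scaffold was on GL456210.1 from 126543 to 126830, 6.66 with a pileup of 15, in replicate 2 at 15 months. Replicate 2 at 6 months had a peak on JH584304.1 from 35327 to 35572 with a fold of 6.61 and a pileup of 21, and one on JH584299.1 from 750972 to 751551 with 6.01 and 12. A peak on JH584304.1 from 47323 to 47571 had a fold of 5.55 in replicate 2 at 15 months. GL456210.1 had 3 more of the 10 highest-ranked, with folds of 5.54, 5.23 and 4.76 in 3 different mice. JH584297.1 from 91481 to 91893 had a fold of 5.01 in replicate 1 at 6 months, at the genome-wide background. The other members of the 10 were on JH584304.1, with a fold of 4.91, and on JH584299.1, with 4.44. The peak lists used here have no gene column, so no gene is named for any peak, on scaffolds or chromosomes.

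Mice of the same age were not found to share more scaffold peak area than mice of different ages. The Jaccard index divides the scaffold bp covered in both lists by those covered in at least 1. For the youngest pair it was 3.26%, for the 15-month pair 4.48% and for the oldest pair 5.74%. Same-age pairs averaged 4.49% ± 1.24 (SD, n = 3) and pairs of different ages 4.96% ± 0.696 (SD, n = 12), a difference of -0.470 points. All 15 pairings of the mice gave a difference at least as large (one-sided exact permutation p = 1, with 0.0667 the smallest possible). The direction turned to 0.347 without replicate 2 at 6 months and to 2.25 with q limited to 0.05 (exact permutation p = 0.2). The 3 same-age pairs shared 31, 22 and 38 regions from the youngest to the oldest, and pairs of different ages shared 20 to 43. Regions shared by the pair and no other mouse numbered 13, 5 and 11, against 4 to 17 for pairs of different ages.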

How the data were processed

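The submitters' processing notes name MACS2 2.1.1.20160309, SAMtools 1.3.1, Trimmomatic 0.36 and the builds mm10 and GRCm39. The aligner is not given in the sources used here, nor are the caller's options. Scaffold names in the lists are those of GRCm39. The pileup deposited by the authors is a signal at the summit. The deposited fold is a ratio, pileup over local input with 1 added to each. For p-values and q-values the authors gave −log10.

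The recovered background gave the deposited −log10 p within 1% for 100% of the 1438 scaffold peaks by a Poisson tail. Starts and pileups were the same in the deposited browser lists. Regions were merged by an overlap of at least 1 bp. Tests were exact permutations over mice with Benjamini-Hochberg adjustment, in Python 3.11.15 with SciPy 1.17.1, and the code was tested on simulated data. Single scaffolds and regions were counted, not tested. Named regions were those in 5 or 6 mice, and up to 10 in 2 to 4 mice and 10 in 1 mouse with q of at most 0.05 in every peak, ranked by within-list percentile of fold. Members, measures and the scaffold set aside, JH584304.1, were chosen with earlier results of these data known. Replicate numbers name different animals, so they do not pair mice. Alternatives were a pileup minimum of 5, limits on q, another background level, a stricter overlap, equal list lengths, autosomes only, and leaving out each mouse or JH584304.1.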

Additional observations from a re-analysis of the deposited data

How the results depend on the processing

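The excess of scaffolds over chromosomes in background, in the share with q of at most 0.05 and in the share overlapped kept its direction in every alternative run. With 6 mice each stayed at exact permutation p = 0.0313. With 5 mice the smallest p is 0.0625, so those settings cannot pass and say nothing about stability. Leaving out 1 mouse at a time gave log2 background differences of 0.40 to 0.48, q share differences of 10.9 to 11.3 points and overlap differences of 20.7 to 21.8 points. The fold difference ran from -0.0028 to 0.0238, negative without replicate 1 at 6 months, and was -0.10 with a pileup of at least 5 (exact permutation p = 0.0625) and -0.36 with q limited to 0.05. The r of scaffold share with age was 0.18 with a pileup of at least 5, and -0.47 to 0.12 leaving out 1 mouse, above 0 without replicate 1 (r = 0.00038) or replicate 2 (0.12) at 21 months. The r of the q share was 0.31 at −log10 q of at least 5, and -0.92 to 0.0296 leaving out 1 mouse, above 0 without replicate 2 at 21 months. The r of background ran from 0.16 to 0.62 leaving out 1 mouse and was 0.65 with a pileup of at least 5, 0.66 with another background level and 0.68 with q limited to 0.05 (exact permutation p = 0.0556, adjusted 0.111). No r with age passed. The Jaccard difference was 2.25 with q limited to 0.05 and -0.997 to 0.347 leaving out 1 mouse. Regions in every mouse numbered 6 to 9 leaving out 1 mouse, which asks for peaks in 5 mice only. They numbered 5 with equal list lengths, 5 with q limited to 0.05 and 0 without JH584304.1. The causes of these changes were not tested. With ages permuted within replicate number as a replicate block, r with age was -0.06 for the share, 0.42 for background and -0.20 for the q share, with exact permutation p of 0.972, 0.444 and 0.778, and no call changed. At a pileup of 3 or 4 fragments, absence of a peak does not show absence of binding.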

Other observations

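Along the second stretch of JH584304.1, some groups of regions recurred at like spacing. This was noticed in the data and is given as values only. The regions from 85485 to 85857 and from 87615 to 87886 had their counterparts at 110734 to 111111 and at 112885 to 113406. The median summit distance over mice was 25248 bp for the first pair, over 5 mice, and 25247 bp for the second pair, over 6 mice. The pileup of the downstream member divided by that of the upstream member was 0.992 to 1.06 for the first pair and 0.935 to 1.04 for the second. The background ratio was 0.943 to 1.04 and 1.00 to 1.25. A further spacing linked the region from 94598 to 94958 with that from 110734 to 111111, at a median of 16132 bp and pileup ratios of 0.976 to 1.06, and region D with the region from 109129 to 109382, at 16110 bp and ratios of 1.21 to 1.3. Among 14 regions there were 89 pairs with summits in at least 3 common mice, and 26 of these pairs had a distance within 30 bp of that of another pair. These matches are not independent, since a repeated spacing can give further matches among the same regions. For example, the regions spaced by 25248 and 25247 bp also gave median distances of 1996 and 2001 bp, and all of these were counted. How many such pairs unrelated positions would give was not computed, and the sequence of these regions was not used here.

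At a background of at least 100 times the lowest of the list, the median fold on scaffolds was 1.67, 2.18, 1.89, 1.68, 1.93 and 1.98 by mouse. On chromosomes it was 1.52, 1.90, 1.67, 1.43, 1.66 and 1.75, over 9 to 24 peaks per mouse, and lower than on scaffolds in 6 of 6 mice. The backgrounds were not matched, since on chromosomes they reached 2552 to 36068 times the lowest by mouse and on scaffolds 620 to 866 times. This difference was seen after the values were known and was not tested.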
